A study of Rattus with 6 samples.

Results

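The genes of the proteasome were followed through an RNA sequencing study of rat cardiac fibroblasts in which the nuclear RNA-binding protein NONO had been knocked down. Members were the protein-coding genes whose symbol begins with Psma, Psmb, Psmc, Psmd, Psme, Psmf or Psmg followed by a digit, and 50 of the 21378 genes in the count table met this rule. They were split into 5 immunoproteasome genes (Psmb8, Psmb9, Psmb10, Psme1 and Psme2) and 45 others. Psmc3ip and Psme3ip1 met the rule by their spelling, although the files describe them as interacting proteins, and they are kept apart from the subunits below.

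The siNONO group held 3 libraries of cells given Nono siRNA by lipofection. The siCtrl group held 3 libraries titled siCtrl whose cells are labelled as having received an empty vector, and which of these applies is not known. Both groups were bulk cultures of a commercially supplied cardiac fibroblast line, for which the labels name no strain, sex or age. The labels give a harvest at 48 h for RT-qPCR and western blotting and no time for sequencing, and they do not say whether replicates were separate cultures, so the p-values rest on a spread between libraries that may be technical. Total counts per library ran from 29692746 to 33365588 in siNONO and from 27792357 to 32869992 in siCtrl. Nono itself stood at 69.9 to 76.1 CPM (counts scaled to a common library size after TMM normalization) in siNONO libraries and 233 to 247 CPM in siCtrl libraries (exact permutation test, two-sided, p = 0.1, which is the lowest value possible with 3 libraries per group). The fibroblast markers summed to 35048 to 35947 CPM in siNONO and 36336 to 39068 CPM in siCtrl, most of it from 3 collagen genes, and no marker was at 0. Of these 13 markers 1 rose and 6 fell (edgeR, adjusted p under the threshold given below), against 16.2% and 15.9% of all tested genes, and those that fell included Lum (log2 fold change -0.91), Fap (-0.70) and Postn (-0.64). Leukocyte markers were also present and summed to 1572 to 1695 CPM in siNONO and 1672 to 1865 CPM in siCtrl.

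The proteasome degrades proteins that carry ubiquitin chains. Its barrel, the 20S core, has outer rings of alpha subunits and inner rings of beta subunits, and the proteolytic sites lie on Psmb5, Psmb6 and Psmb7. The 19S cap, built of Psmc ATPases and Psmd subunits, binds the ubiquitin chain, unfolds the substrate and feeds it into the barrel. Immune cells, and other cells exposed to interferon, make the alternative catalytic subunits Psmb8, Psmb9 and Psmb10, which take the places of Psmb5, Psmb6 and Psmb7 in newly built cores. Psme1 and Psme2 form the ring-shaped activator PA28, which is likewise known to be induced by interferon gamma. The immunoproteasome is best known for making peptides that MHC class I molecules present.

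Of the 50 members 48 had enough reads to be tested, and 21 of these rose and 4 fell in siNONO cells in the quasi-likelihood test of edgeR, with p-values adjusted over the 14412 genes tested by the Benjamini-Hochberg method (threshold 0.05). Over all tested genes the raised share was 16.2% and the lowered share 15.9%, against 43.8% raised among the tested members. The groups did not overlap, with siNONO higher, for 21 of the 48, against 22.9% of all tested genes, and with siNONO lower for 3 of the 48, against 22.1% of all tested genes. The median log2 fold change (siNONO minus siCtrl) was 0.09 over the tested members and 0.00 over all tested genes, so most of these differences were small. The 31 tested members that are subunits of the constitutive core or the 19S cap are abundant, with means from 76.0 to 268 CPM. Of these, 13 rose and 1 fell. Among the 1840 tested genes within that range of CPM, 24.0% rose and 25.8% fell. Scaling by total library size in place of TMM gave 27 members raised and 1 lowered, against 22.0% raised and 11.6% lowered over all tested genes, whose median log2 fold change was then 0.05.

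**Figure D1:**
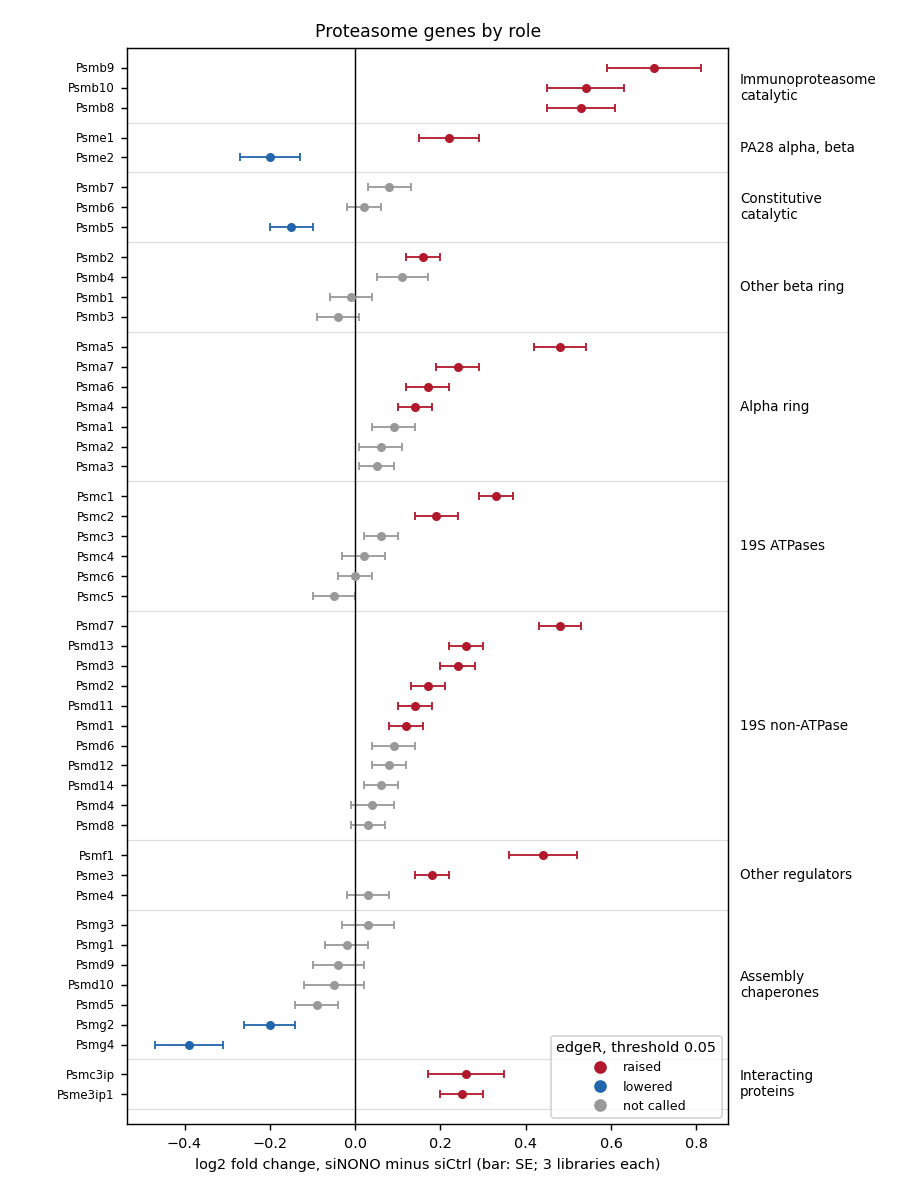
Log2 fold change of the 48 tested proteasome genes (siNONO minus siCtrl, x axis; bars are SE, 3 libraries per group), grouped by role. The immunoproteasome catalytic genes lie farthest to the right, at 0.53 to 0.70, and the assembly chaperone gene Psmg4 farthest to the left, at -0.39.

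The 3 catalytic genes of the immunoproteasome rose together and, in the main test, by more than any other tested member. Psma5 (log2 fold change 0.48 ± 0.06, SE) and Psmd7 (0.48 ± 0.05) came close to Psmb8 and Psmb10, given their SE. Psmb8, which replaces Psmb5 and has chymotrypsin-like activity, had 112, 117 and 111 CPM in siNONO replicates 1, 2 and 3 and 91.4, 77.3 and 67.8 CPM in siCtrl replicates 1, 2 and 3. Psmb9, which replaces Psmb6, had 86.0, 90.6 and 84.7 CPM in siNONO and 67.2, 49.6 and 44.0 CPM in siCtrl. Psmb10, which replaces Psmb7, had 62.1, 66.5 and 66.2 CPM in siNONO and 53.9, 42.1 and 38.5 CPM in siCtrl. In each of these genes every siNONO library lay above every siCtrl library, siCtrl replicate 1 was the highest control and siCtrl replicate 3 the lowest. The log2 fold changes were 0.53 ± 0.08 for Psmb8 (SE; edgeR adjusted p = 1.66e-04), 0.70 ± 0.11 for Psmb9 (adjusted p = 1.88e-04) and 0.54 ± 0.09 for Psmb10 (adjusted p = 3.97e-04), or 1.44-fold, 1.63-fold and 1.45-fold. Each kept its call in all 17 alternative analyses. Psmb9 had the widest range over these, from 0.58 without siCtrl replicate 3 to 0.90 without siCtrl replicate 1. Without siCtrl replicate 3, Psmb8 was at 0.43 and Psmb10 at 0.44, so their rank above the other members was not secure.

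None of the 3 constitutive catalytic genes passed the test in the raised direction and 1 was lowered, against 16.2% raised and 15.9% lowered over all tested genes. With only 3 genes these counts do not set them apart from that background. Psmb5 had 112, 119 and 109 CPM in siNONO replicates 1, 2 and 3 and 136, 117 and 125 CPM in siCtrl replicates 1, 2 and 3. The groups overlapped, and its log2 fold change of -0.15 ± 0.05 passed the threshold narrowly (edgeR adjusted p = 0.0448) and was lost in 9 of 17 alternatives, among them scaling by total library size and leaving out siCtrl replicate 1 or 3 or siNONO replicate 1 or 3. Psmb6 averaged 85.6 ± 1.59 CPM in siNONO and 84.2 ± 3.34 CPM in siCtrl (SD, n = 3 each; log2 fold change 0.02 ± 0.04). Psmb7 averaged 156 ± 1.70 CPM in siNONO and 148 ± 8.03 CPM in siCtrl (0.08 ± 0.05). Neither passed the test, although Psmb7 was raised in 4 alternatives, for example at 0.13 with total library size.

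**Figure D2:**
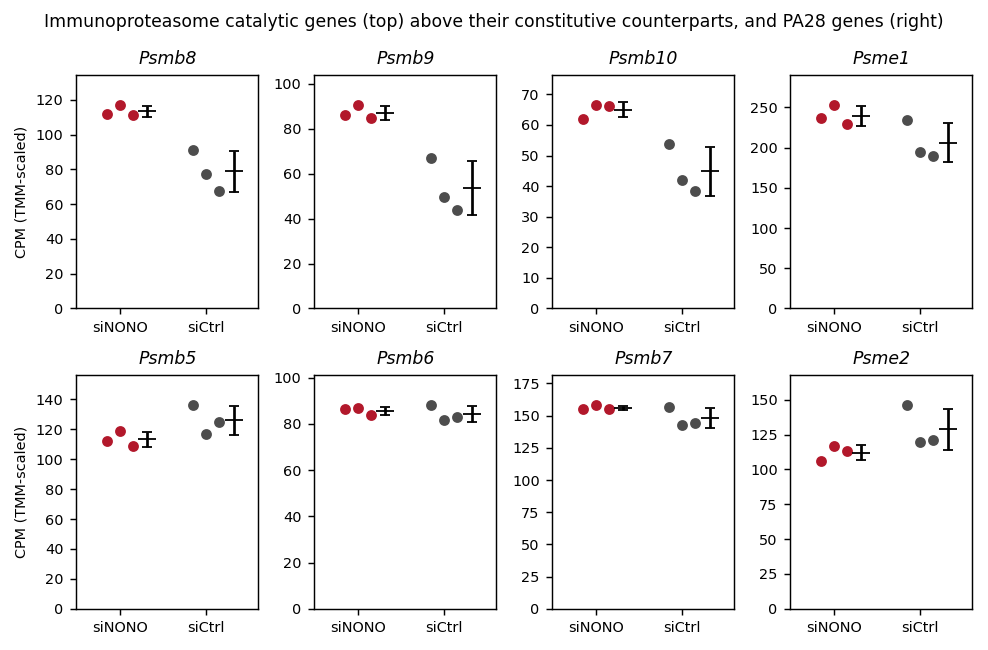
TMM-scaled CPM (y axis, from 0) of the immunoproteasome catalytic genes above their constitutive counterparts, with the PA28 genes Psme1 and Psme2 at the right; points are libraries, and bars give the mean and SD of 3. Psmb8, Psmb9 and Psmb10 are separated between the groups, whereas Psmb5, Psmb6 and Psmb7 overlap.

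Levels of 2 genes can be set side by side only per length, for which the deposited FPKM values (fragment counts scaled by gene length and by library depth) were used. Within a library their ratio does not depend on how libraries are scaled. The FPKM ratio of Psmb8 to Psmb5 was 0.787, 0.771 and 0.797 in siNONO replicates 1, 2 and 3 and 0.529, 0.516 and 0.426 in siCtrl replicates 1, 2 and 3. The FPKM ratio of Psmb9 to Psmb6 was 0.803, 0.841 and 0.814 in siNONO and 0.615, 0.489 and 0.427 in siCtrl, and that of Psmb10 to Psmb7 was 0.390, 0.409 and 0.415 in siNONO and 0.334, 0.287 and 0.261 in siCtrl. No ratio overlapped between the groups, and siNONO was higher in each. For single genes, the CPM of the groups did not overlap, with siNONO higher, in 22.9% of all tested genes. No such share was worked out for ratios of other gene pairs. The numerators Psmb8, Psmb9 and Psmb10 were already separated by CPM, so the ratios are not a result independent of that. Psmb8 made up 43.5 to 44.4% of the summed Psmb8 and Psmb5 FPKM in siNONO and 29.9 to 34.6% in siCtrl. All ratios were below 1, so the constitutive form remained the more abundant mRNA of each pair in every library. These ratios are given without a test.

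**Figure D3:**
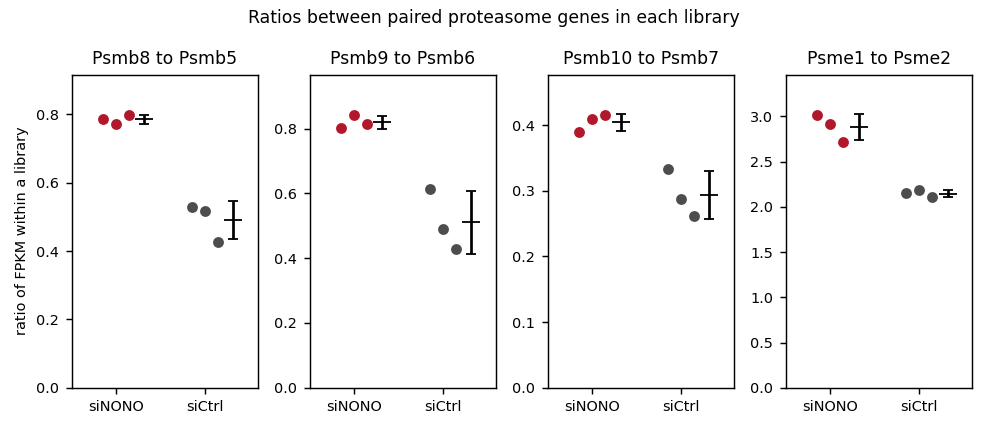
FPKM ratio within each library (y axis, from 0) for 4 pairs of proteasome genes; points are libraries, and bars give the mean and SD of 3. In every pair the 3 siNONO libraries lie above the 3 siCtrl libraries, with means of 0.785 and 0.491 for Psmb8 to Psmb5.

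The PA28 genes moved in opposite directions. Psme1, PA28 alpha, had 237, 253 and 229 CPM in siNONO replicates 1, 2 and 3 and 234, 195 and 189.7 CPM in siCtrl replicates 1, 2 and 3. Its log2 fold change of 0.22 ± 0.07 passed the test (edgeR adjusted p = 0.0227), but siNONO replicate 3 lay below siCtrl replicate 1, and the call ended without siCtrl replicate 2 or 3, without siNONO replicate 1 or 2 and at a threshold of 0.01. Psme2, PA28 beta, had 106, 117 and 113 CPM in siNONO and 146, 120 and 121 CPM in siCtrl, so that every siNONO library was below every control. Its log2 fold change of -0.20 ± 0.07 (adjusted p = 0.0318) lost its call in 8 of 17 alternatives, at -0.11 without siCtrl replicate 1, and also with total library size and without siNONO replicate 1 or 3. The FPKM ratio of Psme1 to Psme2, which no library scaling alters, was 3.01, 2.91 and 2.72 in siNONO replicates 1, 2 and 3 and 2.15, 2.18 and 2.11 in siCtrl replicates 1, 2 and 3. It averaged 2.88 ± 0.148 in siNONO and 2.15 ± 0.0350 in siCtrl (SD, n = 3 each). A second gene, described as similar to Psme2, had 19 to 25 counts in siNONO libraries and 22 to 27 in siCtrl libraries, and how reads shared with such copies were assigned is not given in the sources used here.

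Gene order in the RefSeq table for the GRCr8 assembly, which matched all 50 members by symbol, places Psmb8 and Psmb9 on chromosome 20 within the MHC region, with Tap2 next to Psmb8 and Tap1 between both. Tap1 and Tap2 encode the transporter that carries proteasome products into the endoplasmic reticulum. Tap1 rose to 93.8 ± 3.04 CPM in siNONO, against 59.1 ± 7.52 CPM in siCtrl (SD, n = 3 each; log2 fold change 0.67 ± 0.07), and Tap2 rose by 0.20 ± 0.06 on the log2 scale (edgeR adjusted p = 0.0160). On chromosome 15 the same table gives the order Psme1, Emc9, Psme2, Rnf31 and Irf9. Rnf31, a subunit of the linear ubiquitin ligase complex, rose by 0.23 ± 0.06 and Irf9, a transcription factor of the interferon response, by 0.53 ± 0.07 on the log2 scale. Psme2 was thus lowered while Psme1, Rnf31 and Irf9 around it were raised, and Emc9, with means of 3.54 CPM in both groups, had 0.01 ± 0.13. Of the 50 members 15, Psme1 among them, overlap another gene in that table, and whether the counting used strand is not given, so reads of overlapping genes cannot be told apart there.

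The alpha ring, whose subunits gate the entrance of the barrel, had 4 of 7 tested genes raised and none lowered (edgeR), with a median log2 fold change of 0.14. Over all tested genes 16.2% rose and 15.9% fell, and among genes as abundant as the subunits 24.0% rose and 25.8% fell. The raised genes were Psma5, Psma7, Psma6 and Psma4. Psma5 stood out from its ring, with 126, 129 and 123 CPM in siNONO replicates 1, 2 and 3 and 100.3, 85.0 and 85.6 CPM in siCtrl replicates 1, 2 and 3. Its lowest siNONO library lay above its highest control, and its difference of 0.48 ± 0.06 on the log2 scale (edgeR adjusted p = 2.92e-05) is a 1.40-fold rise. Psma7 averaged 188 ± 3.92 CPM in siNONO and 159.5 ± 11.0 CPM in siCtrl (SD, n = 3 each; 0.24 ± 0.05), and Psma6 averaged 186 ± 4.60 CPM in siNONO and 165 ± 10.4 CPM in siCtrl (0.17 ± 0.05). Psma4 had 0.14 ± 0.04. Psma1, Psma2 and Psma3 lay between 0.05 and 0.09 and did not pass, although Psma1 and Psma2 were raised without siCtrl replicate 1, at 0.13 and 0.12. The calls of Psma5 and Psma7 held in every alternative, whereas Psma6 lost its call in 4 and Psma4 in 7 of 17. Thus 2 of 7 were raised without siCtrl replicate 3, siNONO replicate 2 or siNONO replicate 3. The shares raised over all tested genes were then 13.0%, 14.2% and 11.8%. The eighth alpha gene, Psma8, a testis form, was too low to test, with 0 to 5 counts in siNONO libraries and 0 to 1 in siCtrl libraries.

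Of the 4 structural beta genes 1 passed the test, in the raised direction. This count was near the background, with 16.2% raised over all tested genes and 24.0% among genes as abundant as the subunits. Psmb2 averaged 109 ± 2.07 CPM in siNONO and 97.5 ± 4.60 CPM in siCtrl (SD, n = 3 each). Its call, at 0.16 ± 0.04 on the log2 scale (edgeR adjusted p = 0.0141), was lost in 4 of 17 alternatives. Psmb1 (-0.01), Psmb3 (-0.04) and Psmb4 (0.11) did not pass, although Psmb4 was raised without siCtrl replicate 1 (0.18) and with total library size (0.16). Among the 14 tested genes of the constitutive core, Psmb4 had the highest FPKM in both groups, at 243 ± 2.77 in siNONO and 218 ± 16.5 in siCtrl, and Psma3 the lowest, at 68.1 ± 1.05 in siNONO and 63.7 ± 1.95 in siCtrl. Psmb11, the thymic catalytic subunit, had 2 to 5 counts in siNONO libraries and 0 to 3 in siCtrl libraries and was not tested.

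Of the 17 genes of the 19S cap that met the naming rule 8 rose and none fell (edgeR), and the log2 fold changes ran from -0.05 to 0.48. The cap subunit genes Adrm1 and Sem1, which the rule leaves out, did not pass and are given further below. Over all tested genes 16.2% rose and 15.9% fell, and among genes as abundant as the subunits 24.0% rose and 25.8% fell. Psmd7, a non-catalytic partner of the deubiquitinase in the lid, had 124, 130 and 123 CPM in siNONO replicates 1, 2 and 3 and 92.3, 82.9 and 95.5 CPM in siCtrl replicates 1, 2 and 3. It was separated between the groups by more than the spread within either, at 0.48 ± 0.05 on the log2 scale (edgeR adjusted p = 1.21e-05), the lowest adjusted p of any member. Psmd14, that deubiquitinase itself, averaged 77.5 ± 1.32 CPM in siNONO and 74.5 ± 1.44 CPM in siCtrl and did not pass (0.06 ± 0.04), although it was raised with the FPKM values. The other raised Psmd genes of the cap were Psmd13, Psmd3, Psmd2, Psmd11 and Psmd1. Psmd13 averaged 103 ± 0.297 CPM in siNONO and 86.0 ± 3.87 CPM in siCtrl (0.26 ± 0.04), and Psmd3 averaged 129 ± 0.826 CPM in siNONO and 109.7 ± 1.71 CPM in siCtrl (0.24 ± 0.04). Psmd2, one of the large scaffold subunits of the base, had 0.17 ± 0.04. Psmd1, the other scaffold, had 0.12 ± 0.04 and Psmd11 0.14 ± 0.04, but their calls ended in 9 and 5 of 17 alternatives. The ubiquitin receptor gene Psmd4 (0.04 ± 0.05) did not pass.

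Of the 6 ATPase genes, whose products form the ring that unfolds substrates, only Psmc1 and Psmc2 passed the test. These were 33.3% raised, against 16.2% of all tested genes and 24.0% of genes as abundant as the subunits. A count of 2 in 6 was thus not far from the background. Psmc1 had 166, 170.3 and 159.6 CPM in siNONO replicates 1, 2 and 3 and 134, 126 and 134 CPM in siCtrl replicates 1, 2 and 3. The groups were well apart, at 0.33 ± 0.04 on the log2 scale (edgeR adjusted p = 6.19e-05). Psmc2 averaged 155 ± 4.27 CPM in siNONO and 136 ± 6.85 CPM in siCtrl (SD, n = 3 each; 0.19 ± 0.05; adjusted p = 0.00568). Psmc3, Psmc4, Psmc5 and Psmc6 lay between -0.05 and 0.06 and did not pass, although Psmc3 was raised with total library size and with the FPKM values. In FPKM the levels of the ATPase mRNAs ranged from 38.1 (Psmc6) to 107 (Psmc3) in siNONO and from 36.9 to 99.3 in siCtrl.

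Among the remaining regulators the inhibitor gene Psmf1 changed most. Psmf1 encodes PI31, first described as a proteasome inhibitor and later linked to proteasome transport and assembly. It had 75.6, 80.9 and 79.1 CPM in siNONO replicates 1, 2 and 3 and 66.7, 56.5 and 50.3 CPM in siCtrl replicates 1, 2 and 3. The groups did not overlap. The highest control was siCtrl replicate 1, as it was for most of the tested members. The log2 fold change was 0.44 ± 0.08 (edgeR adjusted p = 5.24e-04). Psme3, the nuclear activator PA28 gamma, averaged 99.6 ± 3.40 CPM in siNONO and 87.7 ± 0.962 CPM in siCtrl (0.18 ± 0.04; adjusted p = 0.00441). Psme4, the activator PA200, averaged 127 ± 4.08 CPM in siNONO and 124 ± 7.18 CPM in siCtrl (0.03 ± 0.05) and did not pass.

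Assembly chaperones hold subunits in place while the particle is built and then leave it. Of 7 tested, 2 fell and none rose (edgeR), against 15.9% lowered and 16.2% raised over all tested genes, and 1 of the 7 log2 fold changes was above 0. Psmg4, part of a chaperone of the alpha ring, had 16.6, 17.6 and 15.2 CPM in siNONO replicates 1, 2 and 3 and 23.8, 21.0 and 20.2 CPM in siCtrl replicates 1, 2 and 3. All 3 siNONO libraries were below the controls, and the log2 fold change of -0.39 ± 0.08 (edgeR adjusted p = 0.00131) kept its call in every alternative. Psmg3, its partner, had 0.03 ± 0.06. Psmg2 averaged 18.2 ± 0.476 CPM in siNONO and 20.9 ± 0.555 CPM in siCtrl (-0.20 ± 0.06; adjusted p = 0.0202), a call lost in 7 of 17 alternatives, leaving out siCtrl replicate 1, siNONO replicate 1 or siNONO replicate 3 among them, and its partner Psmg1 had -0.02 ± 0.05. The chaperones of the 19S base, Psmd5 (-0.09), Psmd9 (-0.04) and Psmd10 (-0.05), did not pass. A count of 2 in 7 genes was near that background. With total library size, 3 of the 7 chaperone log2 fold changes were above 0 and 1 chaperone gene, Psmg4, was lowered.

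Both interacting-protein genes met the test in the raised direction, against 16.2% raised over all tested genes, and 2 genes are too few to read as a share. Psme3ip1, a binding partner of PA28 gamma, averaged 53.6 ± 2.02 CPM in siNONO and 45.1 ± 1.59 CPM in siCtrl (SD, n = 3 each; log2 fold change 0.25 ± 0.05; edgeR adjusted p = 0.00124). Psmc3ip, which acts in meiotic recombination with DMC1 and is no part of the proteasome, averaged 9.79 ± 0.977 CPM in siNONO and 8.14 ± 0.324 CPM in siCtrl (0.26 ± 0.09; adjusted p = 0.0416), and its call ended in 8 of 17 alternatives. It was the least abundant tested member, so no member entered the test through 1 group alone.

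**Figure D4:**
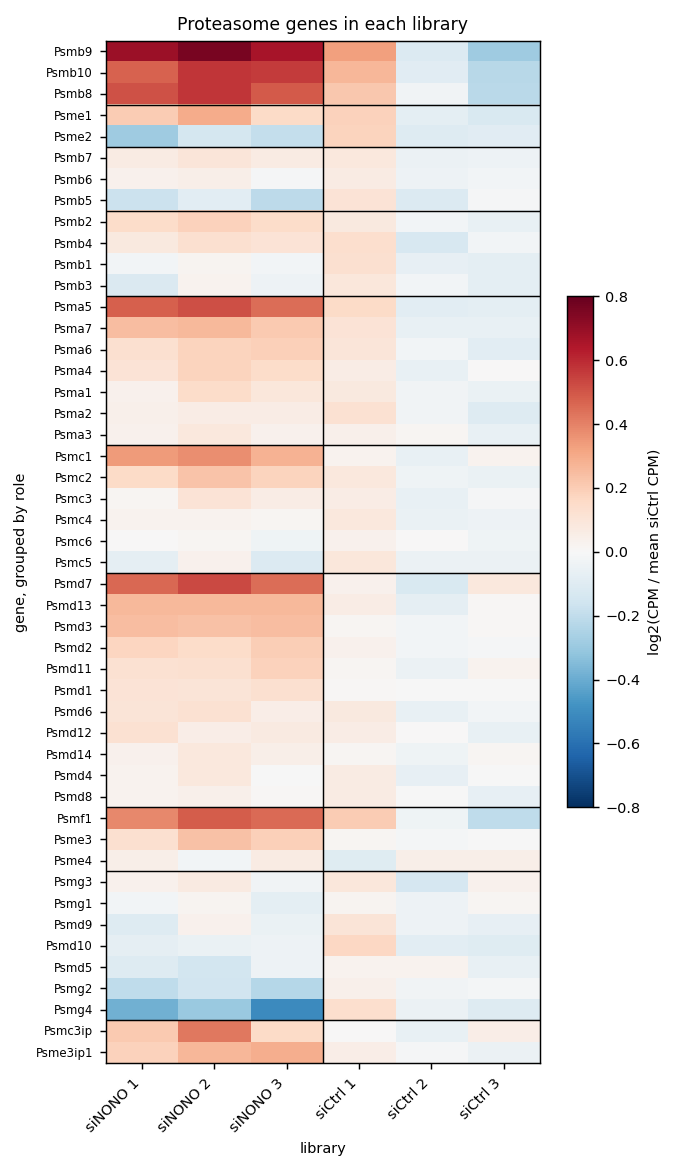
Log2 ratio of each tested proteasome gene's CPM to its siCtrl mean (colour) in the 6 libraries (columns), with genes in rows grouped by role. The immunoproteasome catalytic genes, Psma5, Psmd7 and Psmf1 are high in all 3 siNONO libraries, and siCtrl replicate 1 stands above the other controls in most rows.

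The control libraries were not alike for these genes. Among the catalytic immunoproteasome genes the range over the 3 libraries was 5.25 to 6.76% of the mean in siNONO and 30.0 to 43.4% in siCtrl. Over the 43 tested members outside the immunoproteasome the median range was 5.10% in siNONO and 9.06% in siCtrl, and the widest of them in siCtrl was that of Psmf1, at 28.3%. All 5 immunoproteasome genes and 39 of the 43 others were highest, among controls, in siCtrl replicate 1. Wider siCtrl ranges occurred outside the members, at 85.6% for Isg15 and 71.6% for Irf7, both highest in siCtrl replicate 1. Interferon signalling genes such as Irf2 (1.19%) and Jak1 (2.82%) had narrow ones. Neither this order nor these ranges were worked out over all tested genes, so they cannot be called particular to the proteasome genes. Without siCtrl replicate 1, 25 members were raised and 1 lowered, against 15.3% and 14.6% of all tested genes, and 4 of the 25 were immunoproteasome genes. The lowered count was also 1 without siNONO replicate 1 or siNONO replicate 3. Without siCtrl replicate 3, 15 members were raised, against 13.0% of all tested genes, and 3 of the 15 were immunoproteasome genes.

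Genes that work beside the proteasome were described from lists of partners, regulators and downstream steps. Of 16 tested partners outside the naming rule 1 rose and 2 fell (edgeR), against 16.2% raised and 15.9% lowered over all tested genes. Uba1, the main ubiquitin-activating enzyme, had 206, 215 and 208 CPM in siNONO replicates 1, 2 and 3 and 250.3, 236 and 246 CPM in siCtrl replicates 1, 2 and 3, and fell (log2 fold change -0.22 ± 0.04; edgeR adjusted p = 0.00112). The shuttle factor gene Rad23b (0.13 ± 0.04) rose and Usp14, a deubiquitinase bound to the 19S cap (-0.15 ± 0.04), fell, with calls lost in 5 and 6 of 17 alternatives, Rad23b without siCtrl replicate 3, siNONO replicate 1 or siNONO replicate 3 and Usp14 without siCtrl replicate 2. Pomp, the chaperone of core maturation, named after its values were seen, had 0.02 ± 0.06 and did not pass, nor did the 19S subunit genes Adrm1 (-0.02 ± 0.04) and Sem1 (0.12 ± 0.05; edgeR adjusted p = 0.0979), chosen in the same way.

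The transcription factor NRF1, encoded by Nfe2l1, is known for raising proteasome subunit genes together when proteasome activity falls, after processing by the glycanase NGLY1 and the protease DDI2. In the list of 9 genes of this axis 3 rose (33.3%) and 1 fell (edgeR), against 16.2% raised and 15.9% lowered over all tested genes. With only 9 genes, a count of 3 raised is too small to set apart from that background. Nfe2l1 had a mean of 265 ± 2.71 CPM in siNONO and 233 ± 2.24 CPM in siCtrl (SD, n = 3 each; log2 fold change 0.19 ± 0.04; adjusted p = 0.00168). Ngly1 rose by 0.28 ± 0.06 and the small partner protein gene Maff by 0.46 ± 0.06 on the log2 scale. Nfe2l2, which encodes the related antioxidant factor NRF2, averaged 214 ± 4.25 CPM in siNONO and 255 ± 3.71 CPM in siCtrl (-0.25 ± 0.04; adjusted p = 2.14e-04). Ddi2 (0.05 ± 0.06) did not pass. These counts did not change in any of the 17 alternatives, and mRNA levels say nothing of the processing of NRF1 protein.

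**Figure D5:**
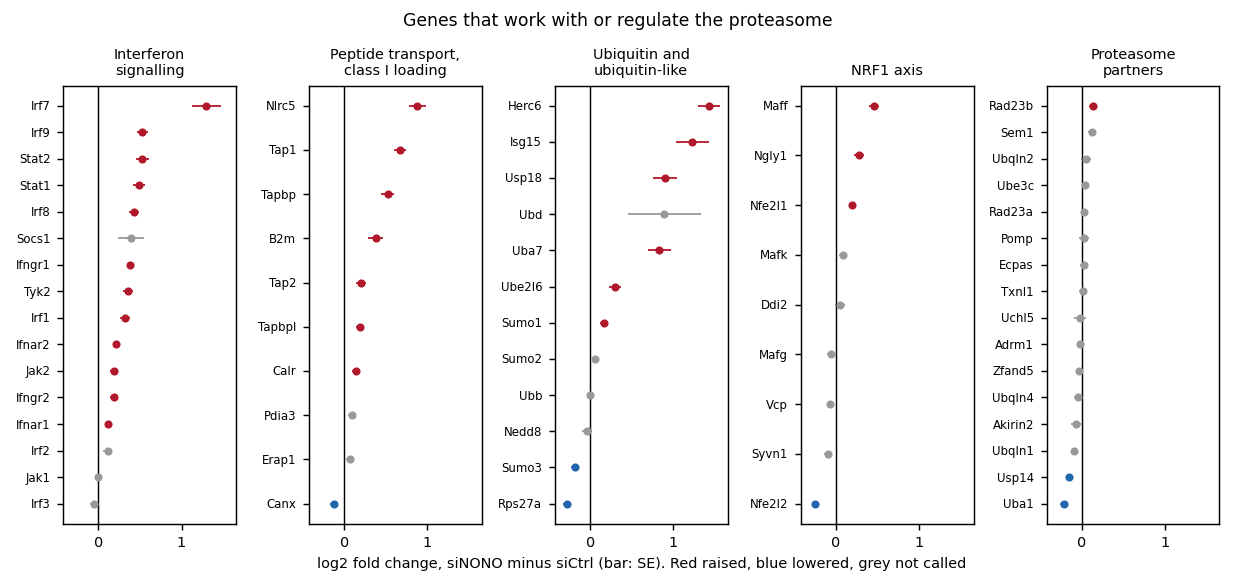
Log2 fold change (siNONO minus siCtrl, x axis; bars are SE) of genes in 5 lists around the proteasome. Interferon signalling genes lie mostly to the right, with Irf7 at 1.30, while proteasome partners cluster near 0, from -0.22 to 0.13.

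Genes that signal from interferon receptors and genes that carry proteasome products to MHC class I were mostly raised. In the signalling list 12 of 16 rose and none fell (edgeR; median log2 fold change 0.34), against 16.2% raised over all tested genes. Without siCtrl replicate 3, siNONO replicate 1 or siNONO replicate 3, 10 were raised. The shares raised over all tested genes were then 13.0%, 11.4% and 11.8%. At a threshold of 0.01, 9 were raised, against 9.91% of all tested genes. Irf7, a factor that amplifies the interferon response, averaged 451 ± 20.8 CPM in siNONO and 183 ± 66.7 CPM in siCtrl (SD, n = 3 each). Irf9 and Stat2, partners in the factor ISGF3, both had 0.53 on the log2 scale. In the class I list 7 of 10 rose and 1 fell, against 16.2% and 15.9% of all tested genes, and without siCtrl replicate 3 there were 4 raised, against 13.0% of all tested genes. Its most raised members were Nlrc5 (0.88 ± 0.10), a transactivator of class I genes, Tap1, and the loading factor gene Tapbp (0.52 ± 0.08), and the lowered one was the chaperone gene Canx (-0.13 ± 0.04), whose call ended in 9 of 17 alternatives.

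Ubiquitin genes and genes of ubiquitin-like modifiers split. In this list 6 of 14 rose and 3 fell (edgeR), against 16.2% and 15.9% of all tested genes, and a robust edgeR fit gave 3 raised, against 16.2% of all tested genes in that fit. Genes of the ISG15 pathway were the most raised. Herc6, a ligase gene of that pathway in rodents, averaged 31.0 ± 3.85 CPM in siNONO and 11.6 ± 2.57 CPM in siCtrl (SD, n = 3 each; log2 fold change 1.43 ± 0.13). Isg15 (1.23 ± 0.20) and the deconjugase gene Usp18 (0.90 ± 0.14) followed, both losing their calls in the robust fit (adjusted p = 0.0713 and 0.0557). Among the lowered genes were Rps27a (-0.28 ± 0.05), which encodes ubiquitin fused to a ribosomal protein, and Sumo3 (-0.18 ± 0.05), whose call ended without siNONO replicate 1 and at a threshold of 0.01. The polyubiquitin gene Ubb (0.00 ± 0.04) did not pass, and was singled out with its values already known.

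Immune cells express the immunoproteasome without stimulation, so leukocyte markers are given beside these values. Of 16 tested leukocyte markers none rose and 6 fell (edgeR; median -0.14), against 15.9% lowered over all tested genes, and their summed CPM ranges, given above, overlapped between the groups. The macrophage gene Lyz2 was the most abundant of them, at 921 CPM in siNONO and 1002 CPM in siCtrl, while the lymphocyte genes Cd79a and Nkg7 had at most 2 counts in any library. Of the 6 cardiomyocyte markers 5 averaged below 1 CPM, and Tnnt2, at 107 to 116 CPM in siNONO and 143 to 159 CPM in siCtrl, made up nearly all of their sum. Of the 7 endothelial markers 4 averaged below 1 CPM, and Tek (16.3 CPM in siNONO and 13.9 CPM in siCtrl) and Egfl7 (20.4 CPM in siNONO and 20.9 CPM in siCtrl) made up nearly all of a sum of 37.7 to 40.5 CPM in siNONO and 36.8 to 38.4 CPM in siCtrl. Pericyte and smooth muscle markers summed to 73.3 to 79.0 CPM in siNONO and 86.3 to 96.2 CPM in siCtrl. The part of these cell types in the proteasome values was not tested, and in bulk RNA fewer cells of a type and less RNA per cell cannot be told apart.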

How the data were processed

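RNA sequencing libraries were made with poly(A) capture and a stranded kit from RNA treated with DNase, per the labels' protocols. The submitters' processing notes name HISAT2, edgeR and the build mRatBN7.2. Tool versions, how reads were counted and whether counting used strand were not given in the sources used here. The deposited count table holds whole-number read counts per gene (21378 genes). The deposited FPKM table (21081 genes) holds values the authors scaled by gene length and depth. No sequences are printed.

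Counts were fitted with edgeR 4.0.16 in R 4.3.3 (filterByExpr, TMM, glmQLFit, glmQLFTest; 4 residual degrees of freedom; 14412 genes; two-sided). SE is the log2 fold change over the square root of F. A count of 0 allows up to 3 counts, or 0.0899 to 0.108 CPM, for counting error only. The scripts were tested on simulated data. No library was a copy of another in its group (chi-square per degree of freedom 3.18 to 7.58).

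Members and lists were chosen with earlier results of these data known. Named genes were Nono, the immunoproteasome genes, their constitutive counterparts, Psme3, Psme4 and Psmf1, and in each other role or list up to 3 rises and 3 falls past the threshold, or else the lowest p. Other members are given by value for completeness. The 17 alternatives were DESeq2 1.42.0 size factors, total library size, no filter, a filter of 1 CPM in 3 libraries, the DESeq2 Wald test, a robust edgeR fit, limma-voom (limma 3.58.1), limma on log2(FPKM + 1) and on log2(FPKM + 0.1), a replicate block, a 0.01 threshold, and each library left out in turn. Some genes of the lists are counted but not reported here by name, in the text or the plot of the lists.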

Additional observations from a re-analysis of the deposited data

How the results depend on the processing

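Of the 17 alternatives, none reversed the direction of a called gene named here. Of the 21 members raised, 14 kept the call in every alternative, and of the 4 lowered, 1 did. Raised members numbered 14 to 27 over the alternatives and 15 to 25 without 1 library, and raised immunoproteasome genes 3 or 4. Nothing says whether the replicate numbers pair the libraries. Deviations from the group mean correlated at -0.0837, -0.136 and -0.00322 between same-numbered libraries, which cannot settle this with 3 libraries per group. With the replicate block 17 members were raised (13 outside the immunoproteasome), against 13.1% of all genes. In that fit 1 was lowered, Psmg4, against 12.9%. The lowered members, 4 in the main result and 3 of them outside the immunoproteasome, numbered 1 and 1 with total library size, 2 and 2 with log2(FPKM + 1) and with log2(FPKM + 0.1), and 1 and 1 at a threshold of 0.01. Without 1 library they ranged from 1 to 4 and, outside the immunoproteasome, from 1 to 3. At a threshold of 0.01, 11 members outside the immunoproteasome were raised, and over all genes 1428 were raised and 1424 lowered. The cause of these differences was not tested, beyond the stricter threshold itself. With total library size all tested genes had a median log2 fold change of 0.05 and the members one of 0.14. Over all genes the split was then 3174 raised to 1673 lowered, and 2829 to 1546 with log2(FPKM + 1) and 2820 to 1566 with log2(FPKM + 0.1), against 2338 to 2292 above. A p that missed the threshold does not show that a subunit was level, and 3 libraries per group limit what small differences can be called.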
